A study of Mus musculus with 4 samples.

Results

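Invariant natural killer T (iNKT) cells of the mouse thymus that carry the T cell receptor (TCR) beta variable segment Trbv29 were compared with those that carry Trbv13-1, Trbv13-2 or Trbv13-3. A cell was given the Trbv symbol with the most unique molecular identifiers (UMIs, tags that let all copies of one molecule count once), if it had at least 2 UMIs and no tie. Cells that held Cd8a or Cd8b1 together with Rag1, Dntt, Arpp21 or Aqp11, transcripts of double-positive thymocytes, were set aside. Of 15767 cells that passed the quality limits, 14331 (90.9%) had a segment. The comparison held 2068 Trbv29 cells and 9178 Trbv13 cells, of which 1648 were Trbv13-1, 6676 Trbv13-2 and 854 Trbv13-3 cells. The segment came from the measured transcripts, so TCR genes were left out of the tests of expression.

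The cells came from 4 thymus libraries, BALB/c 1 and BALB/c 2 from the inbred strain BALB/c, and B6 1 and B6 2 from the strain B6. Cells had been sorted by flow cytometry for CD3 and for binding of CD1d loaded with the lipid PBS57, and were profiled by droplet single-cell RNA sequencing from the 5′ end of transcripts. No group carried a treatment or an engineered allele in the labels, and the age and sex of the mice were not given in the sources used here. Nothing in the labels said whether the libraries came from separate mice or from pools, so the p-values measure the spread between these 4 libraries, which may be technical. Values are given below in the order BALB/c 1, BALB/c 2, B6 1 and B6 2.

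An iNKT cell pairs a nearly fixed TCR alpha chain, built from Trav11 and Traj18, with a beta chain drawn from a small set of V segments, and this receptor binds lipids held by CD1d. Segments of the Trbv13 family (known at the protein level as Vβ8) are the most common in the mouse, and Trbv29 (Vβ7) and Trbv1 (Vβ2) make up most of the rest; the beta chain is known to alter how strongly the receptor binds CD1d. In the thymus, iNKT cells mature into iNKT1 cells (Tbx21, Ifng and NK receptors), iNKT2 cells (high Zbtb16, Il4 and Il13) and iNKT17 cells (Il17a and Il23r).

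The V exons that define the groups are shown because the cell assignment rests on telling them apart. All lie on the plus strand of chromosome 6 in the TCR beta locus and are exon 2 of their gene (GRCm38, GENCODE transcripts), at chr6:41271587-41271881 for Trbv29, chr6:41116178-41116468 for Trbv13-1, chr6:41121539-41121832 for Trbv13-2 and chr6:41130292-41130585 for Trbv13-3. Capitals mark bases that are unlike, or have no partner in, Trbv13-2 in a pairwise alignment.
Trbv29: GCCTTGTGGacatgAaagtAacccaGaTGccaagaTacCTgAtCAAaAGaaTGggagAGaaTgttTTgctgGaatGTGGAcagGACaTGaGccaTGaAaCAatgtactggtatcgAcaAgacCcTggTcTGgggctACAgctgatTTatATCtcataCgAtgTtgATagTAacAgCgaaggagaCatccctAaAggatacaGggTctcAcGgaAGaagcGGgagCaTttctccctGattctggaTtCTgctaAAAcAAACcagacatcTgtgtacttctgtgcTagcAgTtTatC
Trbv13-1: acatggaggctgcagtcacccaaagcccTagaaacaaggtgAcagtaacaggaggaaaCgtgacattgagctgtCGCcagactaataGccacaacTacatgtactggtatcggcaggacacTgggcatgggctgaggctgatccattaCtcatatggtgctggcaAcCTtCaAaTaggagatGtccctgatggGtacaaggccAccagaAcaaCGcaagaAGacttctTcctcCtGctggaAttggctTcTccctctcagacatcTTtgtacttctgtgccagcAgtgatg
Trbv13-2: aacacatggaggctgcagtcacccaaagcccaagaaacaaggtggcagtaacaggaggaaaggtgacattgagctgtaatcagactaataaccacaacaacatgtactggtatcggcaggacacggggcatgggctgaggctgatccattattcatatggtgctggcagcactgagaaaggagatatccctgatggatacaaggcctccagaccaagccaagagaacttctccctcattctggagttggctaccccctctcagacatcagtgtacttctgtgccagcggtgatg
Trbv13-3: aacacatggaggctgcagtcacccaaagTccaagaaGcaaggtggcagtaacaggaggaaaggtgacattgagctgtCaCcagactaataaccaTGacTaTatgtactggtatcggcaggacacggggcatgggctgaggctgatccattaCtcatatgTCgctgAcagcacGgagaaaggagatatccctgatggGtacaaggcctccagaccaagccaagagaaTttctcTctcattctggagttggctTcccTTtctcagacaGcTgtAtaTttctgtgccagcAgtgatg
Trbv29 had 65.7% to 69.0% of aligned bases identical to the 3 Trbv13 exons, and its longest identical run with any of them was 14 bases. The Trbv13 exons shared 85.9% to 91.8% of their bases, with identical runs of 28, 34 and 50 bases, so a read can be harder to place among the Trbv13 segments than between Trbv13 and Trbv29. The 3 Trbv13 segments were pooled in the tests by the rule that set the comparison. Values given below for single Trbv13 segments carry this limit.

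Trbv29 cells numbered 219, 198, 306 and 1345 and Trbv13 cells 1098, 1039, 1332 and 5709. They made up 13.4%, 12.1%, 15.5% and 16.4% of the cells with a segment, against 67.3%, 63.7%, 67.6% and 69.4% for Trbv13 cells. Trbv29 cells had a mean of 17.7, 16.7, 13.3 and 12.6 Trbv29 UMIs per cell, and Trbv13 cells 0.0583, 0.0366, 0.133 and 0.154. These values describe the rule and were not tested. At the threshold, 10, 7, 11 and 74 Trbv29 cells had exactly 2 UMIs of their segment, and 6, 4, 16 and 71 cells with 1 Trbv29 UMI as their top segment lay just outside. A second segment with at least 2 UMIs was seen in 12.4% to 18.8% of Trbv29 cells and in 16.8% to 21.8% of Trbv13 cells. Trbv29 cells were somewhat deeper in every library, with medians of 13380, 12070, 7706 and 7792 UMIs per cell against 12070, 9933, 7520 and 7409 in Trbv13 cells.

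The libraries held 20406245 to 82904358 UMIs in 2038 to 9732 cell barcodes, and pairs of libraries shared 4 to 33 barcodes. B6 2 stood apart from the others: it held the most cells and UMIs (with a median of 7058 UMIs per kept cell, close to the 7056 of B6 1), its file header named another software version (7.1.0 in place of 6.0.0), and several clusters of cells came almost wholly from it. Each result is a difference within a library, and where a named gene lost its call without B6 2, its value without that library is given.

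Trbv29 cells were spread differently over the iNKT subsets: in all 4 libraries a smaller share of them was iNKT1-like or iNKT17-like and a larger share iNKT2-like. A class here is a set of cell clusters named from marker genes of each subset. iNKT17-like cells made up 14.2%, 4.55%, 1.96% and 0.818% of Trbv29 cells and 21.8%, 13.8%, 3.60% and 2.22% of Trbv13 cells. The share was lower in Trbv29 cells by 1.41 to 9.22 percentage points, with a mean difference of -4.97 points ± 4.03 (SD, n = 4 libraries). iNKT2-like cells made up 24.2%, 24.7%, 14.7% and 21.4% of Trbv29 cells and 21.8%, 19.2%, 8.78% and 13.7% of Trbv13 cells, a mean difference of 5.41 points ± 2.19 (SD, n = 4). iNKT1-like cells made up 12.8%, 34.3%, 63.4% and 62.2% of Trbv29 cells and 16.8%, 39.1%, 69.6% and 69.9% of Trbv13 cells, a mean difference of -5.66 points ± 1.67 (SD, n = 4). Each of the 3 differences had the same sign in 4 of 4 libraries, and each had p = 0.13 in an exact two-sided sign-flip permutation test over libraries, which with 4 libraries can give no lower value (0.375 after Benjamini-Hochberg adjustment over 9 classes). The share of iNKT1-like cells differed more between the strains than between the segments.

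**Figure D1:**
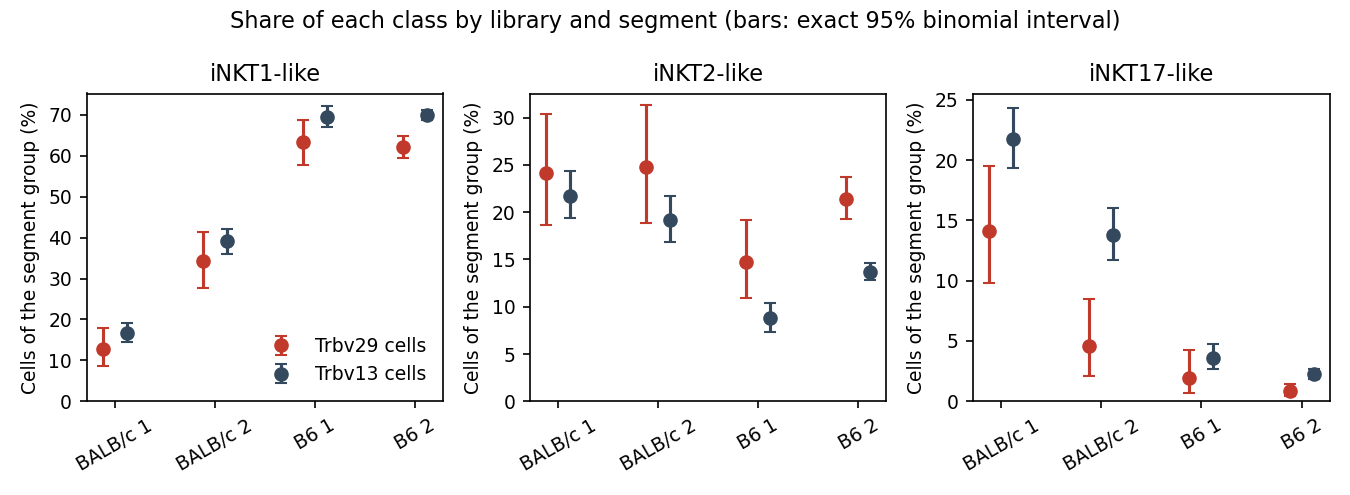
Share of cells in the iNKT1-like, iNKT2-like and iNKT17-like classes (percent of the cells of a segment group, vertical axis) in each library (horizontal axis), for Trbv29 and Trbv13 cells, with exact binomial 95% intervals that cover counting error only. Trbv29 points lie below Trbv13 points in every library for iNKT1-like and iNKT17-like cells and above them for iNKT2-like cells.

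The iNKT2-like class was not made of the same clusters in each library. Cluster 10 held 44 of 53 and 43 of 49 iNKT2-like Trbv29 cells in BALB/c 1 and BALB/c 2, and cluster 2 held 263 of 288 in B6 2. In B6 1, cluster 20 held 17 and cluster 2 held 15 of 45 Trbv29 cells, against 33 and 49 of 117 Trbv13 cells. A further group, cluster 5, led by Hey1, Rln3 and Sox13 and found mainly in BALB/c, was left unnamed. It passed the marker limits for iNKT2-like cells alone (mean log2 fold 0.63). The name was withheld because Sox13, among its leading genes, was on the list of gamma-delta T cell genes. At a clustering resolution of 0.6, a cluster led by the same 3 genes was named iNKT2-like, and the mean iNKT2-like difference was 8.63 points. Cluster 5 was left out of the iNKT2-like shares given at resolution 1. It held 38.8%, 25.3%, 1.96% and 0.446% of Trbv29 cells and 31.4%, 20.1%, 1.05% and 0.123% of Trbv13 cells, again higher in 4 of 4 libraries (exact p = 0.13, 1 after adjustment over 31 clusters). Taking the segments singly, iNKT17-like cells averaged 5.37% of Trbv29 cells, 13.8% of Trbv13-1, 9.90% of Trbv13-2, 7.13% of Trbv13-3 and 7.38% of Trbv1 cells over the 4 libraries. Trbv29 cells were lowest in both BALB/c libraries, whereas in B6 1 and B6 2 the Trbv13-3 cells (1.63% and 0.755%) lay below the Trbv29 cells. iNKT2-like cells averaged 21.3% of Trbv29 cells against 14.2% to 16.1% of cells with each of the other segments. Proliferating cells (3.76% against 3.21% on average), interferon-responding cells (4.51% against 4.37%) and iNKT0-like cells (3.20% against 2.21%) showed no common direction over the libraries.

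Across genes, UMIs were summed per library and segment group, and the 8 sums were compared with edgeR's quasi-likelihood test with the library as a block. Of 11633 genes tested, 265 (2.28%) passed a Benjamini-Hochberg adjusted p of 0.05, 111 (0.954%) higher and 154 (1.32%) lower in Trbv29 cells. Of these, 239 had the same direction in all 4 libraries. The count fell to 120 without B6 2, to 169 without B6 1 and to 126 with DESeq2. The median size of a called difference was 0.372 on the log2 scale, and 31 genes reached a log2 fold change of 1. Levels below are counts per 1000000 UMIs outside the TCR loci (CPM), scaled by edgeR's TMM factors, and fold changes are log2 of Trbv29 over Trbv13 with standard errors. In such sums, fewer cells of a type and less RNA per cell cannot be told apart.

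Markers of iNKT17 cells were the group that differed most. Of 13 tested, 12 fell and none rose, beside 1.32% of all genes that fell (11 or 12 of 13 without any 1 of the libraries, 9 with DESeq2), and the median log2 fold change was -1.03 (the median over all genes was -0.0028). Ccr6, a chemokine receptor of IL-17-producing cells, had 2.98, 0.780, 2.24 and 0.427 CPM in Trbv29 cells and 10.5, 7.19, 8.47 and 3.79 CPM in Trbv13 cells. The Trbv29 value was the lower one in each library, and the log2 fold change was -2.42 ± 0.27 (SE, adjusted p = 7.77e-05), the largest fall of the list. Serpinb1a, a serine protease inhibitor, had 12.9, 2.73, 7.68 and 1.78 CPM in Trbv29 cells and 27.8, 19.8, 18.8 and 9.84 CPM in Trbv13 cells (-1.79 ± 0.20). Il17re, an IL-17 receptor subunit, had 9.61, 5.46, 3.52 and 1.85 CPM in Trbv29 cells and 26.7, 16.1, 6.23 and 4.88 CPM in Trbv13 cells (-1.38 ± 0.16). Il23r (-1.32 ± 0.18), Sdc1 (-1.15 ± 0.19), Il1r1 (-1.11 ± 0.15), Tmem176a (-0.99 ± 0.16), Tmem176b (-0.93 ± 0.12), Aqp3 (-0.63 ± 0.08), Rora (-0.46 ± 0.06) and Blk (-0.59 ± 0.15) fell as well. Blk was not called without B6 2 (-0.65, adjusted p = 0.0754) or without BALB/c 2 (-0.35, 0.0749). Rora missed the threshold after thinning to 3000 UMIs per cell (-0.32, adjusted p = 0.103), as did Aqp3. Tmem176a, Tmem176b and Blk were not called by DESeq2. Maf did not pass (-0.01 ± 0.05), and Il17a had too few UMIs to be tested over the 4 libraries.

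Markers of iNKT2 cells rose: 9 of 11 passed as higher and none as lower, beside 0.954% of all genes that rose (4 without B6 2, 6 without B6 1), with a median log2 fold change of 0.30. Il4, the type 2 cytokine that these cells make at rest, had 297, 236, 124 and 158 CPM in Trbv29 cells and 214, 220.1, 77.2 and 106 CPM in Trbv13 cells. It was higher in Trbv29 cells in each library, though by little in BALB/c 2, and the log2 fold change was 0.46 ± 0.06 (SE, adjusted p = 0.000587). Il13, its neighbour in the type 2 cytokine locus, had 78.5, 71.0, 58.2 and 34.2 CPM in Trbv29 cells and 46.3, 48.8, 18.2 and 22.0 CPM in Trbv13 cells (0.81 ± 0.11). Icos, a costimulatory receptor, had 527, 509, 483 and 562 CPM in Trbv29 cells and 474, 462, 378 and 452 CPM in Trbv13 cells (0.25 ± 0.04), and Izumo1r, the folate receptor 4, 474, 416, 406 and 381 CPM in Trbv29 cells and 411, 400.3, 272 and 298 CPM in Trbv13 cells (0.30 ± 0.05). Zbtb16, which encodes PLZF, had 436, 383, 224 and 422 CPM in Trbv29 cells and 418, 347, 168 and 343 CPM in Trbv13 cells (0.22 ± 0.04 (SE, adjusted p = 0.0102)). Plac8, Hivep3, Ccr4 and Il6ra rose too, by 0.29 to 0.35. Gata3 was higher in 4 of 4 libraries but did not pass (0.10 ± 0.05 (SE, adjusted p = 0.347)), nor did Il17rb (0.25 ± 0.11 (SE, adjusted p = 0.331)). Without B6 2, Zbtb16 (0.19, adjusted p = 0.154), Hivep3 (0.26, 0.151), Ccr4 (0.14, 0.574), Plac8 (0.27, 0.138) and Il6ra (0.19, 0.569) no longer passed. Without B6 1, Zbtb16 (0.18, 0.0631), Plac8 (0.30, 0.0546) and Il6ra (0.29, 0.0801) did not, and Il6ra (0.31, 0.101) did not without BALB/c 2 either. Ccr4 also missed the threshold under DESeq2 (0.30, adjusted p = 0.301).

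Markers of iNKT1 cells were lower by smaller amounts: 8 of 16 fell, none rose, beside 1.32% of all genes that fell, and the median was -0.19. Only 3 fell without B6 2, 5 without B6 1, 3 with DESeq2 and 1 after thinning every cell to 3000 UMIs. Nkg7, a cytotoxic granule membrane protein, had 113, 337, 922 and 809 CPM in Trbv29 cells and 154, 409, 1114 and 976 CPM in Trbv13 cells (-0.30 ± 0.03 (SE, adjusted p = 7.15e-05)). Il2rb, the receptor chain shared by IL-2 and IL-15, had 135, 226, 537 and 514 CPM in Trbv29 cells and 160.4, 265, 626 and 589 CPM in Trbv13 cells (-0.22 ± 0.03). Neither gene's groups crossed within a library, though the difference between the strains was larger than that between the segments. Fasl (-0.35 ± 0.06), Ccl5 (-0.19 ± 0.04), Il12rb2 (-0.37 ± 0.07), Klre1 (-0.30 ± 0.06), Klrk1 (-0.18 ± 0.05) and Klrd1 (-0.15 ± 0.04) fell too. Tbx21, the lineage factor T-bet, had 20.2, 32.8, 102 and 113 CPM in Trbv29 cells and 19.2, 39.9, 113 and 134 CPM in Trbv13 cells and did not pass (-0.20 ± 0.05 (SE, adjusted p = 0.0668)), but passed without BALB/c 1 (-0.23, 0.0291). Ifng did not pass either (-0.34 ± 0.10 (SE, adjusted p = 0.122)). Without B6 2 the calls for Fasl (-0.33, adjusted p = 0.11), Il12rb2 (-0.28, 0.524), Klre1 (-0.29, 0.324), Klrk1 (-0.20, 0.299) and Klrd1 (-0.13, 0.475) were lost. Without B6 1, Il12rb2 (-0.35, 0.0577), Klrk1 (-0.14, 0.301) and Klrd1 (-0.13, 0.258) were not called, and without BALB/c 2 Klrk1 was not (-0.18, 0.116). Il12rb2 was at 0.01 in the BALB/c libraries alone. Ccl5 (-0.11, 0.448), Fasl (-0.22, 0.193) and Il2rb (-0.14, 0.223) missed the threshold after thinning, and Ccl5 also under a stricter segment call (-0.17, 0.206). The class shares above rest on the same marker genes and are not independent of these counts.

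**Figure D2:**
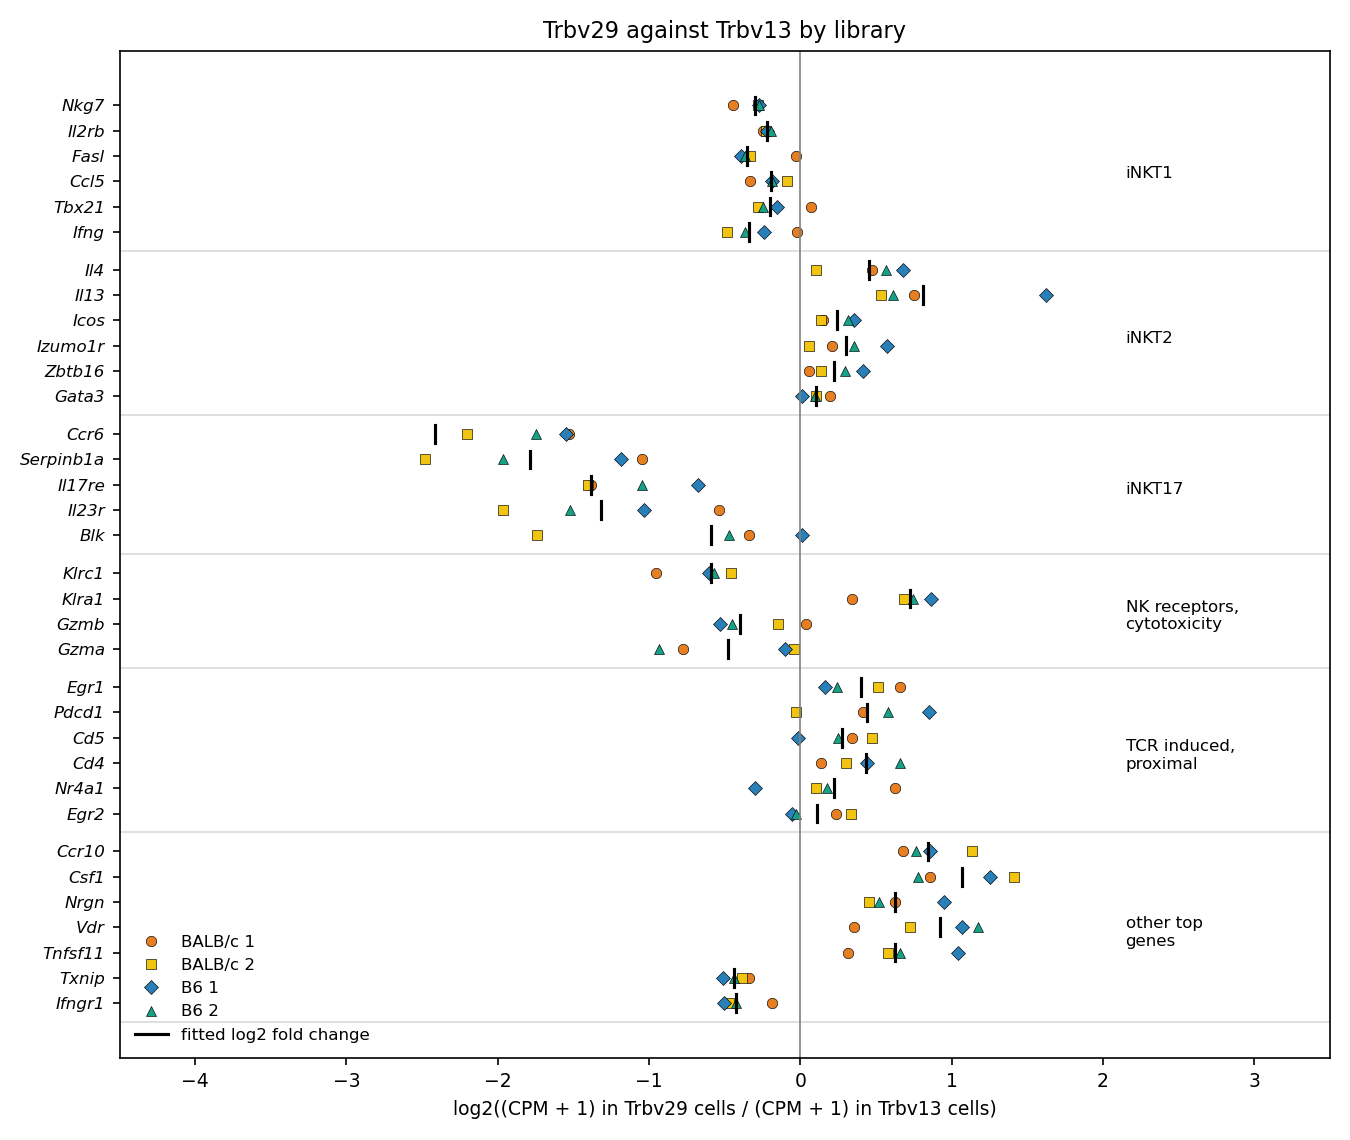
Log2 ratio of CPM + 1 in Trbv29 cells to CPM + 1 in Trbv13 cells (horizontal axis) for 34 named genes grouped by role (vertical axis), 1 point per library and a bar at the fitted log2 fold change. All 4 points of Ccr6, Serpinb1a and Il17re lie left of 0, and all 4 points of Ccr10, Csf1, Il4 and Il13 lie right of it.

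Beyond the subset markers, the genes with the lowest p among those that rose included a chemokine receptor, an NK receptor and several cytokine or signalling genes. Ccr10, a receptor for mucosal and skin chemokines, had 157, 126, 58.9 and 73.3 CPM in Trbv29 cells and 98.0, 56.9, 32.0 and 42.8 CPM in Trbv13 cells (0.84 ± 0.06 (SE, adjusted p = 2.49e-06)). Csf1, the growth factor of macrophages, had 38.1, 80.0, 30.7 and 26.0 CPM in Trbv29 cells and 20.5, 29.5, 12.3 and 14.7 CPM in Trbv13 cells (1.07 ± 0.10 (SE, adjusted p = 1.81e-05)). In both genes every Trbv29 value exceeded the Trbv13 value of its library. Tnfsf11, which encodes RANKL, a ligand that acts on thymic epithelial cells, had 52.7, 52.3, 29.8 and 32.7 CPM in Trbv29 cells and 42.2, 34.6, 14.0 and 20.4 CPM in Trbv13 cells (0.63 ± 0.09). Vdr, the vitamin D receptor, had 30.8, 31.2, 17.3 and 23.9 CPM in Trbv29 cells and 23.9, 18.4, 7.73 and 10.0 CPM in Trbv13 cells (0.92 ± 0.13). Nrgn, a calmodulin-binding protein (0.63 ± 0.06), Rbpms, an RNA-binding protein (0.47 ± 0.05), and Nos1, a nitric oxide synthase (1.30 ± 0.18), rose in 4 of 4 libraries as well.

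Genes with the lowest p among those that fell included Klrc1, Nkg7, Ccr6, Serpinb1a and Il17re from the lists, and 5 others. Txnip, a regulator of thioredoxin and glucose uptake, had 69.6, 121, 169 and 113 CPM in Trbv29 cells and 88.3, 158, 241 and 154 CPM in Trbv13 cells (-0.44 ± 0.04 (SE, adjusted p = 2.32e-05)). Ifngr1, a chain of the interferon gamma receptor, had 80.8, 112, 203 and 193 CPM in Trbv29 cells and 92.2, 156, 289 and 259 CPM in Trbv13 cells (-0.42 ± 0.04). Ltb, which encodes lymphotoxin beta, had 487, 481, 673 and 675 CPM in Trbv29 cells and 604, 621, 799.9 and 782 CPM in Trbv13 cells (-0.28 ± 0.03). Ctla2a, a cathepsin inhibitor whose close copy Ctla2b may share reads with it (-0.51 ± 0.05), and Fam83a (-1.81 ± 0.21) fell in 4 of 4 libraries. Another 13 called genes, 8 higher and 5 lower, were predicted or immunoglobulin genes and were counted only, apart from the RNAs described next.

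The gene with the lowest p of all was Gm20400, a predicted noncoding RNA, described here because of its values. It had 453, 425, 131 and 78.4 CPM in Trbv29 cells and 83.9, 92.4, 31.7 and 17.3 CPM in Trbv13 cells, and the groups did not come near each other in any library. Its log2 fold change of 2.24 ± 0.05 (SE, adjusted p = 9.96e-14) was called under each of the 16 alternatives listed for the comparison, with values of 2.13 to 2.47. Gm20400 lies at chr6:142161493-142173796 on the plus strand (GRCm38), on the chromosome of the TCR beta locus, and overlaps Slco1a6 on the other strand, which had 9 UMIs in all kept cells. Whether the counting used strand was not given in the sources used here, so reads of the pair cannot be told apart. Its annotated transcript of 665 bases shared no run of 16 bases with 62 annotated transcripts of the TCR beta locus. Gm12840, a second predicted RNA at chr4:117700188-117700923, also chosen for its values, had 15.6, 17.2, 5.12 and 2.92 CPM in Trbv29 cells and 3.85, 3.98, 1.91 and 0.874 CPM in Trbv13 cells (1.87 ± 0.20 (SE, adjusted p = 6.31e-05)). Neither of its nearest tested neighbours, Eri3 (0.08, adjusted p = 0.743) and Dmap1 (0.04, adjusted p = 1), passed.

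Cell by cell, Gm20400 was detected in 78.1%, 70.2%, 42.8% and 35.9% of Trbv29 cells and in 21.8%, 20.5%, 8.33% and 7.32% of Trbv13 cells. After each cell was thinned to 3000 UMIs, leaving out 71 shallower Trbv29 cells and 334 Trbv13 cells, the shares were 58.9%, 53.9%, 25.9% and 19.4% against 12.7%, 13.6%, 4.98% and 4.04%. The shares of the segment groups thus stayed apart at equal depth. Among cells assigned to another segment that still held at least 2 Trbv29 UMIs, Gm20400 was found in 63.6% of 22, 72.2% of 18, 46.2% of 39 and 33.3% of 192 cells. In cells of other segments with no Trbv29 UMI it was found in 19.4%, 18.3%, 8.01% and 6.85%. Median depth in the first of these sets was 12760, 10110, 11550 and 11650 UMIs, and in the second 11680, 10240, 7490 and 7366. Cells marked as likely doublets made up 4.55%, 0%, 12.8% and 24.5% of the first set, against 1.68%, 1.64%, 2.07% and 7.89% of the second, and their part in the result was not tested. By segment, in CPM without TMM scaling, Gm20400 was at 441, 410.2, 129 and 82.7 in Trbv29 cells, at 55.9, 58.2, 50.6 and 15.2 in Trbv1 cells, and at no more than 144 in any Trbv13 segment of any library. Of the other genes called higher and looked at by segment in this way, Klra1 and Il13 were also highest in Trbv29 cells in each library. For Il4, Trbv1 cells of BALB/c 2 (249 CPM) exceeded the Trbv29 cells (228 CPM). For Nrgn, the cells of other segments of BALB/c 1 (455 CPM) exceeded the Trbv29 cells (403 CPM). For Ccr10, Trbv1 cells of BALB/c 2 (142 CPM) exceeded the Trbv29 cells (121 CPM). For Csf1, Trbv13-3 cells of B6 1 (34.4 CPM, from UMIs in 2.44% of 123 cells) exceeded the Trbv29 cells (30.1 CPM), and for Gm12840 the cells of other segments of B6 1 (5.64 CPM) exceeded them (5.02 CPM).

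**Figure D3:**
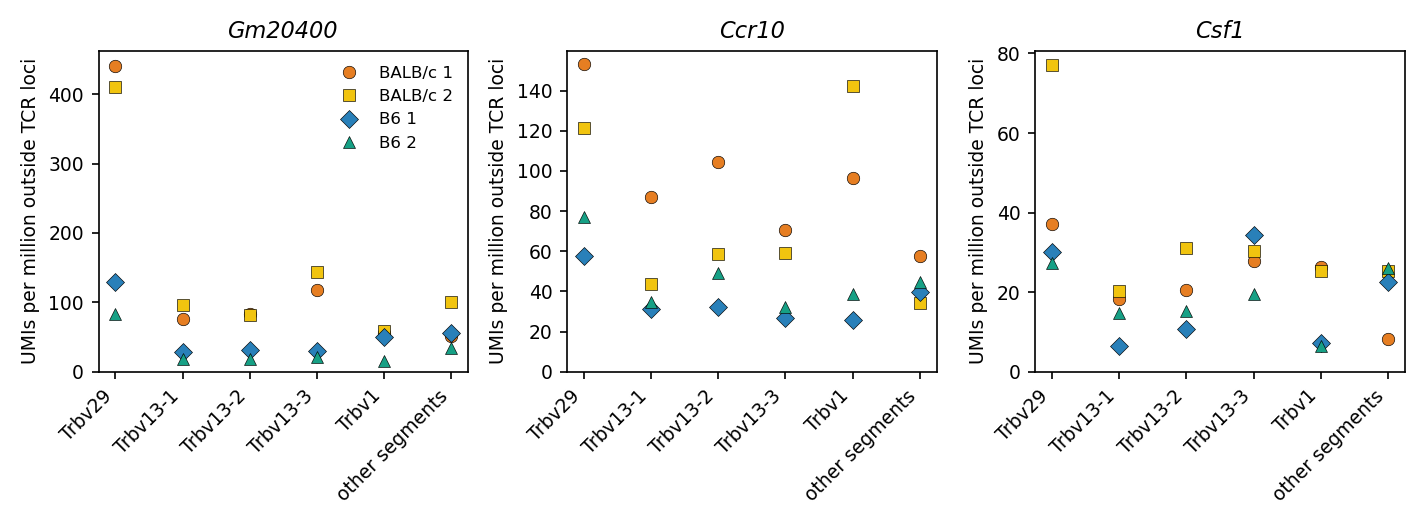
CPM without TMM scaling (UMIs outside the TCR loci; vertical axes, starting at 0) of Gm20400, Ccr10 and Csf1 in cells of each Trbv segment (horizontal axes), 1 point per library. Gm20400 is highest in Trbv29 cells in each library, and Ccr10 and Csf1 in 3 of 4.

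Among cytotoxicity and NK receptor genes, 9 of 21 fell and 1 rose, beside 1.32% and 0.954% of all genes (2 fell without B6 2, and 4 with DESeq2 or after thinning). The 1 that rose was Klra1, the inhibitory receptor Ly49A, with 54.0, 130.3, 286 and 222 CPM in Trbv29 cells and 42.3, 80.7, 157 and 132 CPM in Trbv13 cells (0.73 ± 0.06 (SE, adjusted p = 2.49e-06)). Klrc1, which encodes the inhibitory receptor NKG2A, went the other way, with 12.9, 58.9, 80.6 and 78.3 CPM in Trbv29 cells and 25.9, 81.1, 123 and 117 CPM in Trbv13 cells (-0.59 ± 0.06 (SE, adjusted p = 2.32e-05)). The Klra and Klrc families hold near-identical copies that differ between strains, so reads may have been split among them. Gzmb, a granzyme, had 29.5, 81.5, 234 and 244 CPM in Trbv29 cells and 28.6, 90.6, 338 and 334 CPM in Trbv13 cells (-0.40 ± 0.06), and Gzma 46.0, 163, 218 and 86.1 CPM in Trbv29 cells and 79.6, 168, 233 and 165 CPM in Trbv13 cells (-0.48 ± 0.11). The Gzmb values crossed in BALB/c 1. The call for Gzma was lost without BALB/c 1 (-0.44, adjusted p = 0.065), without B6 2 (-0.24, 0.329), without likely doublets (-0.45, 0.077) and under DESeq2 (-0.46, 0.838). Without B6 2 Gzmb was at -0.33 (0.0598). Hopx (-0.30 ± 0.05) and Klrb1c (-0.28 ± 0.05), which encodes NK1.1, an antigen that BALB/c mice lack, fell too. Neither was called without B6 2 (-0.30, adjusted p = 0.0881, and -0.20, 0.547), nor were Klre1, Klrk1 and Klrd1, counted here as well. The balance turned once the mix of subsets was matched as described below: 3 then rose (Klra1, Fcer1g and Klra7) and Klrc1 fell, and within iNKT1-like cells 5 rose (these and Klra9 and Cd244a) and Klrc1 fell. Within that class and without B6 2, Klra7 (0.22, adjusted p = 0.91) and Cd244a (0.49, 0.871) were not called, and Klra9 was not tested.

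Some genes that report TCR signalling were higher in Trbv29 cells. Of 20 genes induced early by TCR signals, 3 rose and none fell, beside 0.954% of all genes that rose, and 9 had an unadjusted p under 0.05. The median log2 fold change was 0.11. At the matched class mix described below, 2 of the 20 rose, Egr1 and Pdcd1, beside 0.485% of all genes called in either direction. There 4 had an unadjusted p under 0.05, and the median was 0.038. In the BALB/c libraries alone 17 of the 20 were higher (median 0.155), with Egr1 and Cd5 called. In the B6 libraries alone 9 were higher and 11 lower (median -0.044), with Pdcd1 called higher and Dusp2 and Cd69 called lower. Genes called in either direction made up 1.42% and 2.7% of all genes in these 2 fits. Egr1 was at 0.23 (adjusted p = 0.0523) by edgeR in B6 alone. Egr1, an immediate early factor, had 186, 161, 83.8 and 72.6 CPM in Trbv29 cells and 117, 112, 74.6 and 61.2 CPM in Trbv13 cells (0.40 ± 0.06 (SE, adjusted p = 0.00204)). Cd5, a negative regulator whose level follows the strength of TCR signals in the thymus, had 295, 346, 173 and 231 CPM in Trbv29 cells and 233, 248, 175 and 195 CPM in Trbv13 cells (0.27 ± 0.05 (SE, adjusted p = 0.00802)), and was the lower one in Trbv29 cells of B6 1. Pdcd1, the inhibitory receptor PD-1, had 336, 236, 136 and 129 CPM in Trbv29 cells and 251, 241, 74.9 and 86.3 CPM in Trbv13 cells (0.44 ± 0.08 (SE, adjusted p = 0.00666)). Nr4a1 (Nur77) did not pass, with 55.0, 71.4, 13.4 and 20.6 CPM in Trbv29 cells and 35.3, 66.3, 16.8 and 18.1 CPM in Trbv13 cells (0.23 ± 0.09 (SE, adjusted p = 0.321)), nor did Egr2 (0.11 ± 0.08 (SE, adjusted p = 0.67)). Cd5 was not called without BALB/c 2 (0.21, adjusted p = 0.0826) or after thinning (0.20, 0.0881), and Pdcd1 was not called by DESeq2 (0.46, 0.398). Nfatc1 (0.16 ± 0.05 (SE, adjusted p = 0.12)) passed when BALB/c 1 was left out (0.22, 0.0181).

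Of 20 genes of the CD3 complex and proximal TCR signalling, 4 rose and none fell, beside 0.954% of all genes that rose. Of the 20 fitted values 12 were below 0, with a median of -0.021. In the B6 libraries alone the same 4 rose and Ubash3a, Fyb and Ptpn22 fell, beside 2.7% of all genes called in either direction. Without BALB/c 1, Ubash3a, Ptpn22 and Lat fell, beside 161 of all 11620 genes. None of the 20 passed at the matched class mix described below (6 had an unadjusted p under 0.05). The coreceptor Cd4 had 99.4, 112, 50.5 and 81.2 CPM in Trbv29 cells and 90.1, 90.9, 36.9 and 51.2 CPM in Trbv13 cells (0.43 ± 0.07 (SE, adjusted p = 0.00246)). Slamf6, a receptor that takes part in iNKT selection (0.32 ± 0.06), Cd247, the CD3 zeta chain (0.18 ± 0.03), and the costimulator Cd28 (0.17 ± 0.03) rose in 4 of 4 libraries. All 4 calls were lost without B6 2: Cd4 was then at 0.27 (adjusted p = 0.099), Slamf6 at 0.26 (0.117), Cd247 at 0.15 (0.189) and Cd28 at 0.15 (0.18). Cd28 was also lost without BALB/c 2 (0.16, 0.0545), under the stricter segment call (0.15, 0.0845) and, with Cd247 (0.12, 0.548), after thinning (0.12, 0.589).

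Of 20 genes of homing and tissue exit, 2 rose and 2 fell, beside 0.954% and 1.32% of all genes. The fitted values of 14 were below 0. None passed at the matched class mix described below (3 had an unadjusted p under 0.05). The lymph node receptor Ccr7 (0.40 ± 0.07) and the Th2-associated receptor Ccr4 (0.35 ± 0.08) rose. Cxcr6, a retention receptor of iNKT1 cells (-0.35 ± 0.04), and Ly6c2 (-0.29 ± 0.05) fell. Cxcr6 had 173, 232, 241 and 269 CPM in Trbv29 cells and 219, 256, 329.8 and 354 CPM in Trbv13 cells and Ccr7 90.4, 76.1, 41.3 and 41.2 CPM in Trbv29 cells and 72.8, 68.1, 26.9 and 28.6 CPM in Trbv13 cells. Ccr7 (0.33, adjusted p = 0.0745) and Ly6c2 (-0.23, 0.21) were not called without B6 2, and Ly6c2 not by DESeq2 (-0.25, 0.956) or after thinning (-0.16, 0.223). Of 12 cytokine and chemokine genes tested, Csf1, Il4 and Il13 rose and Ccl4 (-2.02 ± 0.35) and Ccl5 fell, beside 0.954% and 1.32% of all genes. Ccl4 had 0.331, 0.390, 0.640 and 1.57 CPM in Trbv29 cells and 0.266, 11.4, 2.91 and 4.44 CPM in Trbv13 cells, levels of a few UMIs in most Trbv29 sums, and its values crossed in BALB/c 1. It had too few UMIs to be tested without B6 2.

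Of 21 lineage transcription factors, 5 rose and 3 fell, beside 0.954% and 1.32% of all genes (2 and 2 without B6 2, 3 and 2 without B6 1). None of the 21 passed at the matched class mix described below (8 had an unadjusted p under 0.05), where 14 fitted values were above 0 and 7 below. Id3, which restrains E proteins, had 761, 662, 256 and 256 CPM in Trbv29 cells and 652, 557, 191 and 159 CPM in Trbv13 cells (0.40 ± 0.06 (SE, adjusted p = 0.000695)), and Lef1, a factor of early iNKT cells, 397, 413, 173 and 259.6 CPM in Trbv29 cells and 333, 323, 166 and 226 CPM in Trbv13 cells (0.23 ± 0.04). Zbtb16, Hivep3 and Tox (0.21 ± 0.05) also rose. Bhlhe40 (-0.63 ± 0.13) and the residency factor Zfp683 (-0.29 ± 0.05) were among those that fell. Tox was not called without B6 2 (0.12, adjusted p = 0.544) or without B6 1 (0.20, 0.0801), and Bhlhe40 not without B6 1 (-0.59, 0.0672) or BALB/c 2 (-0.61, 0.0626). Zfp683 was not called without B6 2 (-0.28, adjusted p = 0.204), by DESeq2 (-0.28, 0.0799) or after thinning (-0.22, 0.111). Id3 and Lef1 were also 2 of the 3 early-stage genes that rose among 10 tested, the third being Tox2 (0.93 ± 0.13), while the IL-2 receptor chain Il2ra (-0.95 ± 0.21) fell. Il2ra was at 1.92 to 3.51 CPM in Trbv29 cells and its call was lost without BALB/c 2 (-0.79, 0.136), without B6 1 (-0.89, 0.0978), without B6 2 (-1.23, 0.0543), under DESeq2 (-1.01, 0.135), under the stricter call (-0.94, 0.0543) and after thinning (-0.73, 0.548).

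Of 16 proliferation genes, none passed over all libraries with edgeR or DESeq2 (5 and 3 had an unadjusted p under 0.05), and the calls turned on the libraries used. Without BALB/c 1, 7 rose (Mcm6, Pcna, Stmn1, Tyms, Mki67, Rrm2 and Hmgb2), beside 147 of all 11620 genes. Of these 7, Tyms was at 0.47 (adjusted p = 0.00732) and Pcna at 0.23 (0.0257). Without B6 2, Ube2c and Cenpf fell, beside 77 of all 10961 genes. In the B6 libraries alone Mcm6, Tyms and Stmn1 rose, beside 156 of all 11933 genes. In the BALB/c libraries alone Ube2c fell, beside 98 of all 11155 genes. Among 20 interferon response genes, Ifi27l2a alone passed (0.16 ± 0.03), beside 0.954% of all genes that rose. Markers of cells that the sort could have let through were counted too. None of 8 double-positive thymocyte genes and neither of 2 myeloid genes passed with edgeR (1 of each at an unadjusted p under 0.05) or DESeq2 (1 and 0), and Spi1 and Lyz2 had no UMI in Trbv29 cells. Cells that held Cd8a or Cd8b1 together with Rag1, Dntt, Arpp21 or Aqp11 had been set aside beforehand. These genes are on the double-positive list, so its values were partly set by that rule and cannot show what the sort let through. Summed over each list, without TMM scaling, double-positive genes were at 43.0 to 81.4 CPM in Trbv29 cells and 41.3 to 67.6 CPM in Trbv13 cells, higher in Trbv29 cells in 2 of 4 libraries, and myeloid genes at 125 to 145 and 128 to 172 CPM, lower in 4 of 4. B cell genes summed to 35.0 to 134 against 40.5 to 175 CPM, lower in 4 of 4. Ms4a1 had no UMI in Trbv29 cells, and of 3 B cell genes tested Cd79b fell (-1.61 ± 0.39) at no more than 1.28 CPM, a call lost without any 1 of the libraries (adjusted p = 0.054 to 0.294). Of 2 gamma-delta T cell genes tested, Cd163l1 rose (0.66 ± 0.12) and Sox13 did not pass (-0.05 ± 0.10 (SE, adjusted p = 0.949)), with sums of 19.2 to 80.4 against 12.4 to 78.1 CPM, higher in 4 of 4 libraries. Of 2 regulatory T cell genes tested, Ikzf2 rose (0.23 ± 0.04, a call lost without B6 2 at 0.22, adjusted p = 0.141) and Il2ra fell, as given above, with sums of 75.7 to 153 against 65.6 to 132 CPM, higher in 3 of 4. The part of such cells in the differences above was not tested. Beside these single calls, 0.954% of all genes rose and 1.32% fell. Cd163l1 missed the threshold after thinning (0.78, 0.0954).

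To compare the segments at an equal mix of subsets, Trbv13 cells were weighted within each library to the class shares of the Trbv29 cells. Then 57 of 11742 genes (0.485%) were called, 34 higher and 23 lower. Of the 265 genes called before, 47 were among them and 258 kept their sign, with a median ratio of 0.556 to the earlier log2 fold change. Of 16 iNKT1 markers none was then called with edgeR (5 had an unadjusted p under 0.05), of iNKT17 markers only Rora (-0.46), and of iNKT2 markers Icos (0.18), Il4 (0.29) and Il13 (0.47). The classes were clustered on the expression of these cells and named from these same markers. Fewer marker calls were thus partly built in, here and within the classes below. Ccr6 went from -2.42 to -1.25 (adjusted p = 0.0602) and Nkg7 from -0.30 to -0.06 (0.77). Several other genes kept most of their difference: Gm20400 was at 2.23, Csf1 at 0.82, Vdr at 0.76, Ccr10 at 0.60 and Klra1 at 0.86, all called. Klrc1 was at -0.33 and Txnip at -0.27, also called. Klra genes were kept out of the clustering that defined the classes. Matching to the 31 clusters instead of the classes left 49 calls, 44 of them shared with the 265.

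**Figure D4:**
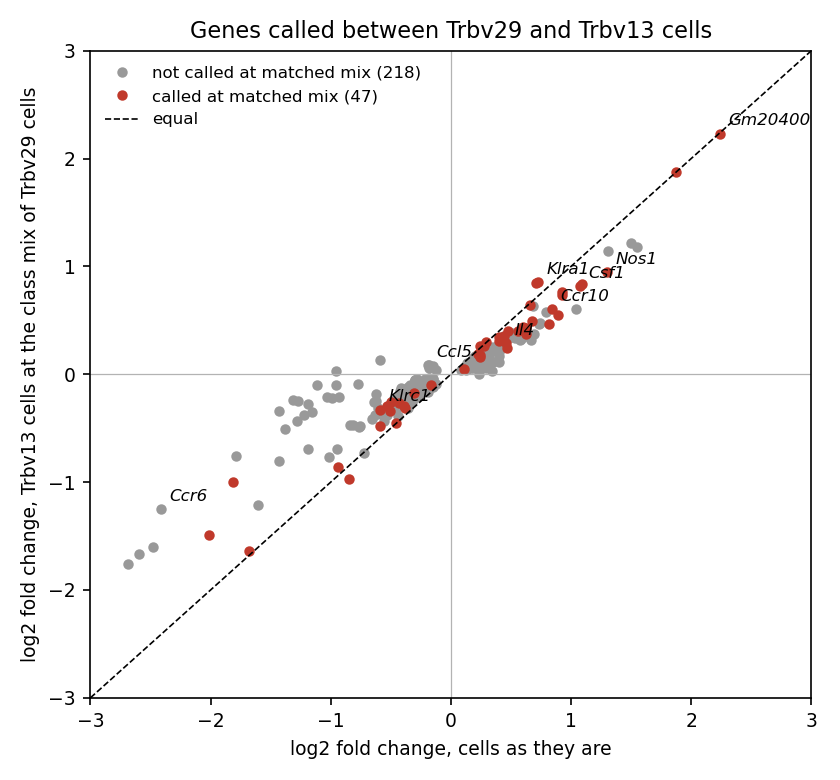
Log2 fold change of each of the 265 called genes with cells as they are (horizontal axis) and with Trbv13 cells weighted to the class mix of the Trbv29 cells (vertical axis). Points called at matched mix (47) are coloured, and the dashed line marks equal values; most points lie nearer to 0 on the vertical than on the horizontal axis, with a median ratio of 0.556.

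Within iNKT1-like cells (1126 Trbv29 and 5508 Trbv13 cells), 68 of 9067 genes (0.75%) passed, 46 (0.507%) higher and 22 (0.243%) lower. Klra1 had 407, 449, 443 and 363 CPM in Trbv29 cells and 348, 311, 204 and 178 CPM in Trbv13 cells and rose by 0.91 ± 0.05, more than over all cells. Ccr10 (1.24 ± 0.16) rose from levels of 3.86 to 14.1 CPM. Gzmc, a granzyme (1.41 ± 0.13), Zfp536 (1.42 ± 0.16) and Nrgn (1.04 ± 0.13) were the next of lowest p, but Gzmc ran opposite in B6 1 and Zfp536 in BALB/c 1. Thy1, a surface glycoprotein of T cells, had 282, 455, 431 and 382 CPM in Trbv29 cells and 558, 532, 549.8 and 512 CPM in Trbv13 cells (-0.40 ± 0.05). Klrc1 (-0.39 ± 0.06), Cxcr6 (-0.27 ± 0.05), Gramd3 (-0.43 ± 0.08) and Setbp1 (-0.90 ± 0.15) fell as well. Of the 16 iNKT1 markers only Xcl1 passed (0.17 ± 0.05; 0.22, adjusted p = 0.251, without B6 2). Without B6 2, Gzmc (0.26) and Nrgn (0.51) were far from the threshold (adjusted p = 0.999 for each), as were Gramd3 (-0.18, 0.999) and Cxcr6 (-0.19, 0.559), and Zfp536 and Setbp1 were not tested. DESeq2 called 9 genes, of which Ccr10, Klra1, Klrc1 and Thy1 are named here.

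Within iNKT2-like cells (435 Trbv29 and 1338 Trbv13 cells), 36 of 9503 genes (0.379%) passed, 22 (0.232%) higher and 14 (0.147%) lower. Csf1 had 101, 189.6, 68.9 and 53.9 CPM in Trbv29 cells and 45.2, 71.7, 46.5 and 37.5 CPM in Trbv13 cells (0.89 ± 0.12), higher in each library. Rbpms had 193, 169, 168 and 129.9 CPM in Trbv29 cells and 112, 111, 121 and 97.1 CPM in Trbv13 cells (0.55 ± 0.08). Nrgn (0.94 ± 0.12), Ccr10 (0.61 ± 0.09) and Nos1 (0.93 ± 0.15) rose too. Of the 11 iNKT2 markers, Icos passed (0.20 ± 0.04), and all 11 fitted values were above 0. The lowest p among genes that fell were those of Rora, an orphan nuclear receptor (-0.75 ± 0.12), Gramd3 (-1.17 ± 0.19), Ctla2a (-0.70 ± 0.12), the centromere gene Cenpa (-0.52 ± 0.10) and Rnf43 (-1.97 ± 0.36). Of 16 proliferation genes, Ccnb2, Ube2c and Mki67 fell, with log2 fold changes of -0.75 to -0.67. Rora (-0.79, adjusted p = 0.398), Ctla2a (-0.77, 0.255), Gramd3 (-0.75, 0.805), Cenpa (-0.33, 0.747) and Nos1 (1.12, 0.105) were not called without B6 2, nor were Icos (0.21, 0.303), Ccnb2 (-0.46, 0.805), Ube2c (-0.87, 0.246) and Mki67 (-0.41, 0.874), and Rnf43 was not tested. DESeq2 called 6 genes, all higher, among them Ccr10, Csf1 and Rbpms.

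Within iNKT17-like cells only BALB/c 1 (31 Trbv29 and 239 Trbv13 cells) and B6 2 (11 and 127 cells) held enough cells, and 18 of 8176 genes (0.22%) passed, 9 higher and 9 lower. Ifi27l2a (0.98 ± 0.15), Id3 (1.00 ± 0.18), Hivep3 (1.68 ± 0.33) and Ccr10 (1.46 ± 0.29) rose, and Emp3 (-1.35 ± 0.25), Selenop (-1.14 ± 0.21) and Crip1 (-1.08 ± 0.22) fell. Id3 was at 803 and 104 CPM in Trbv29 cells against 341 and 106 CPM in Trbv13 cells, so its rise was that of BALB/c 1 alone. Likewise Ccr10 was at 164 and 31.99 CPM (64 and 4 UMIs) in Trbv29 cells against 48.3 and 31.45 CPM in Trbv13 cells. Gzma and Ccl5 had 0 UMIs in Trbv29 cells and 175 and 148 UMIs in Trbv13 cells. These UMIs came from 6 (1.64%) and 13 (3.55%) of 366 Trbv13 cells, and 0 of 42 Trbv29 cells allows a share of up to 7.14%, so a difference in the share of cells was not detectable at this number of cells. The call for Itm2a (4.15 ± 0.60) came from 36 UMIs in BALB/c 1, of which 35 were in a single cell. None of the 13 iNKT17 markers passed within the class with edgeR (5 at an unadjusted p under 0.05) or DESeq2 (2), where 11 were lower and 2 higher. DESeq2 called 1 gene. Gm20400 was higher in each of these classes, by 2.20 ± 0.08 in iNKT1-like, 2.08 ± 0.08 in iNKT2-like and 2.38 ± 0.19 in iNKT17-like cells.

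Fitted by strain, 158 of 11155 genes (1.42%) passed in the 2 BALB/c libraries and 322 of 11933 (2.7%) in the 2 B6 libraries, with 2 libraries each. The difference of the segment effect between strains passed for 10 genes (0.086%) of 11633. Lmo4, a LIM-domain cofactor, had 264, 225, 278 and 142 CPM in Trbv29 cells and 362, 313, 238 and 133 CPM in Trbv13 cells. It was lower in Trbv29 cells of both BALB/c libraries and higher in both B6 libraries, a difference of -0.62 ± 0.07 (SE, adjusted p = 0.00112). Lgals3, which encodes galectin-3, had 259, 238, 193 and 203 CPM in Trbv29 cells and 511, 426, 251 and 264 CPM in Trbv13 cells and fell in both strains, further in BALB/c (-0.53 ± 0.07 (SE, adjusted p = 0.00235)). Itm2a, an early-stage membrane protein, had 39.8, 82.7, 82.5 and 80.6 CPM in Trbv29 cells and 32.1, 49.1, 129 and 97.3 CPM in Trbv13 cells, with opposite directions in the strains (0.96 ± 0.15 (SE, adjusted p = 0.0139)). Rexo2, a mitochondrial exonuclease, went lower in BALB/c and higher in B6 (-0.36 ± 0.06 (SE, adjusted p = 0.0156)). Akr1c18, a steroid-metabolizing enzyme (-3.37 ± 0.43 (SE, adjusted p = 0.00235)), and Kirrel3os (-4.41 ± 0.70 (SE, adjusted p = 0.0156)) stood at under 25 CPM and were not called by DESeq2 (adjusted p = 1), nor Kirrel3os without B6 2 (-2.52, 0.897). Interaction values are log2, BALB/c minus B6.

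The TCR locus gave 2 further readouts that the segment rule did not use. Trbc1, the first of the 2 constant genes, took 23.0%, 24.7%, 25.3% and 32.5% of Trbc UMIs in Trbv29 cells and 25.3%, 25.8%, 25.4% and 33.3% in Trbv13 cells. It was lower in 4 of 4 libraries by 1.07 points ± 0.888 on average (SD; exact sign-flip permutation p = 0.13, 0.3125 adjusted over 5 measures), and the mean of the shares per cell was lower in 3 of 4 (exact p = 0.625). Trbc1 and Trbc2 together were at 927, 1042, 838 and 395 CPM in Trbv29 cells and 873, 905, 742 and 358 CPM in Trbv13 cells, higher in 4 of 4 by 81.2 CPM ± 45.2 (SD; exact p = 0.13, adjusted 0.3125). The alpha chain genes Trac (337 against 341 CPM on average, exact p = 0.875) and Trav11 (20.8 against 20.6 CPM, exact p = 0.875) had no common direction. CPM of these Trbc and alpha chain genes was taken over all UMIs, TCR genes included, without TMM scaling. UMIs of the joining segments were counted in B6 2 alone and were not compared.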

How the data were processed

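The authors deposited raw UMI counts per gene and cell barcode for 4 libraries. Per the submitters' processing notes, they were made with Cell Ranger 7.1.0 on mm10. Per the file headers, 3 libraries were written by version 6.0.0 and B6 2 by 7.1.0. Whether introns or strand were used in counting was not given in the sources used here. From these counts, cells with at least 500 genes, 1000 UMIs and at most 10% mitochondrial UMIs were kept, clustered with scanpy 1.11.5 and leidenalg 0.10.2 (2000 variable genes outside the TCR loci, 30 components, resolution 1) and named from lists of markers. Immunoglobulin, H2, Klra, mitochondrial, ribosomal, cell cycle and sex-linked genes were kept out of the variable genes too. Doublets were not removed in the main analysis. Likely doublets were marked by Scrublet scores and left out in an alternative. UMIs outside 268 TCR genes were summed per library and segment group and tested with edgeR 4.0.16 (R 4.3.3, filterByExpr, TMM, quasi-likelihood, library as a block). DESeq2 1.42.0 was an alternative. The fit was tested on simulated data. Sums within a class needed at least 10 cells. Binomial intervals are exact, at 95%, and cover counting error only.

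The pairing comes from both segment groups lying in the same library, and deviations of the paired sums from their group means correlated across 11633 genes with r of 0.32 in BALB/c and 0.788 in B6. The members and lists were chosen with earlier results of these data known. Named genes were 10 genes given throughout (such as Il4 and Tbx21), up to 4 of lowest p per list, the 10 of lowest p in each direction, and 5 per direction within classes and for the difference between strains. Predicted genes named in the report were added after their values were seen, as were list members named beyond 4. Single values of some genes are not reported here. V exons were read from GENCODE transcripts (GRCm38).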

Additional observations from a re-analysis of the deposited data

Results flagged for a closer look

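For 10 genes the difference between Trbv29 and Trbv13 cells was not the same in BALB/c and B6 by edgeR's test of the interaction, given here as log2 values, BALB/c minus B6. Described in the report are Lmo4 (-0.616), Lgals3 (-0.534), Itm2a (0.963), Rexo2 (-0.36), Akr1c18 (-3.37) and Kirrel3os (-4.41). The others were Prg4, a lubricating proteoglycan (-1.56), Actn2, an actinin (-1.55), Selenop, a selenium carrier (-1.06), and Ptms (-0.471). Prg4 and Ptms rose in B6 alone by the fits per strain, and Actn2 and Selenop fell in BALB/c alone.

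In 2 class shares every BALB/c library moved one way and every B6 library the other. The share of interferon-responding cells was lower in Trbv29 cells of both BALB/c libraries and higher in both B6 libraries, and the mean BALB/c difference minus the mean B6 difference was -0.931 points. The share of iNKT0-like cells was higher in Trbv29 cells of both BALB/c libraries and lower in both B6 libraries, with 2.41 points between the mean differences. It rested on 8, 13, 4 and 17 Trbv29 cells, and in B6 2 the shares were 1.26% and 1.28%. With 2 libraries per strain, neither of these differences between strains was tested. The interferon-responding share in BALB/c rested on 0 Trbv29 cells and 7 Trbv13 cells.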

How the results depend on the processing

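The class shares and the Trbc1 share kept their direction under every alternative run, from -4.33 to -6.82 points for iNKT1-like, 3.92 to 8.63 for iNKT2-like, -3.55 to -6.16 for iNKT17-like cells and -0.543 to -1.38 for Trbc1. With 4 libraries none could pass the threshold. The 265 calls became 126 with DESeq2 (65 higher), 533 without the filter on low counts, 57 at matched class mix, 49 at matched cluster mix, 111 after thinning, 158 in BALB/c alone and 120 to 308 without 1 library. Without the pairing by library (no replicate block), 1 gene was called. The 10 interaction calls became 4 with DESeq2, 80 without the filter, 0 without the block (152 at an unadjusted p under 0.05) and 30 to 81 without 1 library. The 68 calls within iNKT1-like cells became 9 with DESeq2, 0 without the block (83 unadjusted) and 20 to 64 without 1 library. The 36 within iNKT2-like cells became 6 with DESeq2, 66 without the filter, 1 without the block and 13 to 36 without 1 library, and the 18 within iNKT17-like cells 1 with DESeq2. There the block is the same model, since each strain has 1 library, and leaving out 1 of its 2 libraries was not run, since no residual degree of freedom remains.

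At matched class mix 7 of the 265 called genes turned sign, among them Blk (0.13), Klrk1 (0.06), Klrd1 (0.08) and, chosen after its values were seen, Pxdc1 (from -0.96 to 0.03). Il12rb2 (0.01) turned in BALB/c alone. Ccl5 was at 0.0847 and 0.0029 at matched class and cluster mix, Cd74 at 0.0824 and 0.0508, Stmn1 at -0.0612 and -0.0338, and Egr2 at -0.0075 and -0.0252 (-0.0333 in B6 alone). After thinning, Gata3 was at -0.0003, Mcm6 at -0.0054 and Sox13 at 0.0786. Sox13 was also at 0.0032 with DESeq2, 0.0342 without the block, 0.1225 under the stricter call, 0.1521 in B6 alone and -0.1024 to 0.0111 without 1 library (above 0 without BALB/c 2). Arpp21 was at -0.3414 with DESeq2, -0.1147 without the block, -0.0902 under the stricter call, -0.3699 with double-positive-like cells kept, -0.2437 without likely doublets and -1.006 to 0.8495 without 1 library (-0.0903 without BALB/c 1, -1.006 without B6 2). The cause of these shifts was not tested. Alternatives fitted on 1 strain and the cluster match were chosen after seeing the data.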
